A study of Mus musculus with 6 samples.

Results

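The 9 genes described here encode the machinery by which a cell senses, exports, takes up and stores cholesterol: the liver X receptors Nr1h2 and Nr1h3 with their partner Rxra, the exporters Abca1 and Abcg1, the lipoprotein receptor Lrp1 with the ubiquitin ligase Mylip, the esterifying enzyme Soat1 and the apolipoprotein Apoc1. They were chosen by name and not by a threshold on measured values, and each symbol matched 1 row of the 26789 genes listed by Ensembl identifier. RNA-seq was done on microglia, the brain's own macrophages, from the rostral nucleus of the solitary tract (NST), the first brainstem relay of taste. Controls were postnatal day 15 (P15) offspring of dams kept on the control diet, and E3–E12 diet mice were P15 offspring of dams given a low-sodium diet from embryonic day 3 to 12; the labels name these groups Control Diet and Low Sodium Diet. C57Bl/6 is named as the strain of the controls. Each of the 6 libraries (3 per group) was made from the pooled tissue of 6 littermates, so that 1 library stands for 1 litter. The methods of the study describe selection with beads against CD11b, a protein shared by microglia and other myeloid cells, whereas the deposited description names laser microdissection, so the selection step behind these libraries is uncertain.

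Liver X receptors are nuclear receptors that bind oxysterols, oxidized forms of cholesterol, and act on DNA as pairs with a retinoid X receptor. Among their known targets are the transporters ABCA1 and ABCG1, which load cholesterol onto apolipoprotein E and other acceptors, and MYLIP (also called IDOL), which marks certain lipoprotein receptors for degradation. In the brain this route matters most for cells that engulf lipid-rich material such as myelin and cell debris, microglia among them, because brain cells cannot break down the cholesterol ring.

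Values are normalized counts per gene and are given in the order of replicates 1, 2 and 3 of each group; they summed to between 9407141 and 17204618 in a library. All 11 microglial markers listed, including Itgam, the gene of CD11b, were above 0 in all 6 libraries. Control replicate 2 stood apart, since it had the highest total and the most genes listed at 0 (10640, against 3459 to 7135 in the others), so the log2 fold changes of the 9 genes, and of the other genes named, are also given without it where they moved. Microglial markers summed to 102114, 518995 and 248983 normalized counts among the 3 controls and to 102267, 237936 and 317766 among the 3 E3–E12 diet litters. The 6 markers of border-associated macrophages, which a CD11b selection would retain, summed to 20542 in control replicate 2 and to 5144 to 9489 in the other libraries. The 8 astrocyte markers went the other way and summed to 1738 in control replicate 2, where Gfap, Aldh1l1 and Gjb6 were listed at 0, against 4844 to 9914 elsewhere. In mean log2 level, 0 of the 11 microglial and 0 of the 6 border-associated macrophage markers were higher in E3–E12 diet mice, whereas 8 of the 8 astrocyte markers were, 1 of them with an unadjusted limma p under 0.05. These counts include control replicate 2, which had the highest microglial and border-associated macrophage sums and the lowest astrocyte sum. They were not made without it. In bulk RNA, fewer cells of a type and less RNA per cell cannot be told apart.

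None of the 9 genes passed the test for a difference between the diets. All 9 passed the filter of a mean of at least 10 normalized counts, and with limma and Benjamini-Hochberg adjustment over the 18007 genes tested each had an adjusted p of 0.999. With limma on these values, the study's threshold of 0.1 was passed by 0 genes (0% of those tested). The study itself applied that threshold to DESeq2 results and listed genes past it, none of the 9 among them. An unadjusted limma p under 0.05 was reached by 268 genes (1.49% of those tested) and by 0 of the 9. Without control replicate 1 it was reached by 878 genes. Without E3–E12 diet replicate 3, 1 gene, none of the 9, passed the adjusted threshold. In mean log2 level, 6 of the 9 were lower in E3–E12 diet mice, against 45.6% of all genes tested. Of these 6, 1 was Apoc1, which passed the filter only through the controls. With all 6 libraries, the 11 microglial and 6 border-associated macrophage markers were all lower too, and their part in the count of 6 of 9 was not tested. Leaving out control replicate 2 or E3–E12 diet replicate 1 put 5 of the 9 on the higher side. The control and diet libraries did not overlap for 1 of the 9, Abcg1, against 5.9% of all genes tested (2.99% with the diet litters above, 2.91% with them below). The median log2 fold change, E3–E12 diet minus control on the log2(normalized count + 1) scale, was -0.36 over the 9 genes, Apoc1 included, and 0.09 over all genes tested. Without control replicate 2 these medians were 0.02 and -0.004. The median standard error (SE) was 0.74 for the 9 genes and 0.90 for all genes tested, so a change of about that size in a single gene was not detectable with 3 litters per group. An exact permutation test of 3 libraries against 3 cannot give a p below 0.1.

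**Figure D1:**
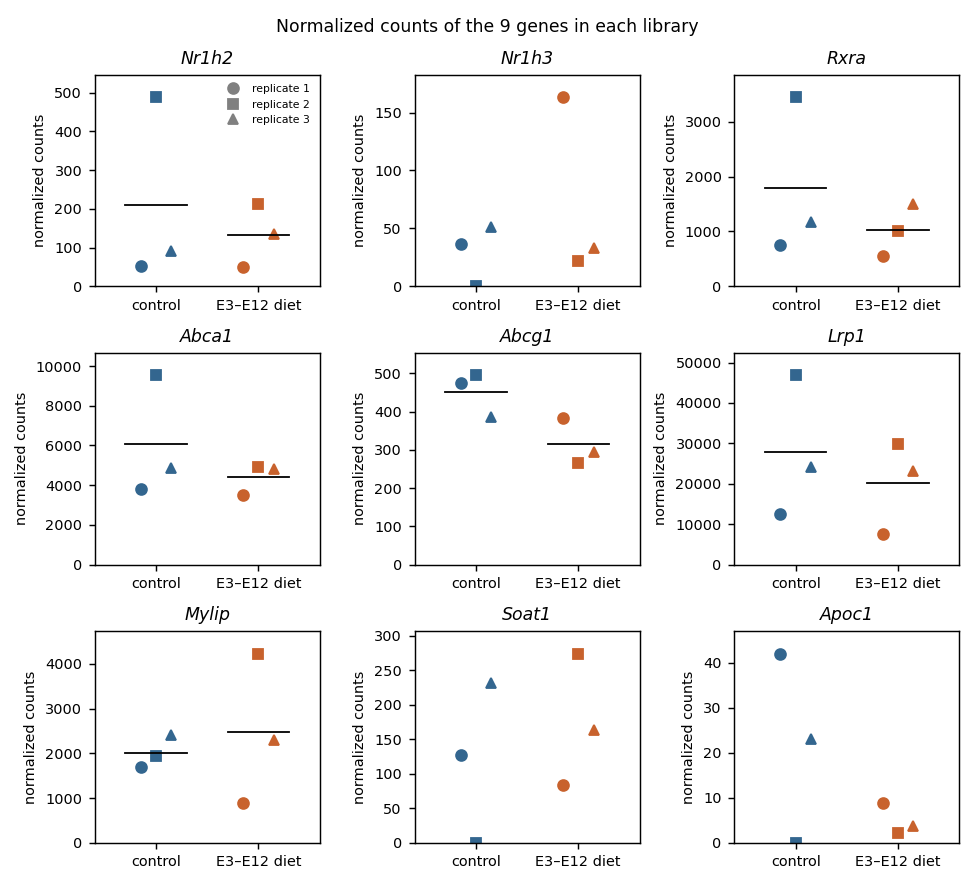
Normalized counts of each of the 9 genes (vertical axes, each from 0) in the 3 control and 3 E3–E12 diet libraries, with 1 point per library and marker shapes for the replicate number; black lines are group means, drawn only for genes with no library at 0. Abcg1 is the panel in which all 3 diet points lie below all 3 control points, and control replicate 2 is the highest point for 5 genes and lies at 0 for 3.

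Nr1h2 encodes LXRβ, the liver X receptor found in nearly all tissues, and lies at chr7:44549616-44553951 on the minus strand (GRCm38; ENSMUSG00000060601). Its normalized counts were 53.3, 488 and 90.9 among the 3 controls and 50.2, 211 and 134 among the 3 E3–E12 diet litters. The groups overlapped, with the highest value in control replicate 2 and the lowest in E3–E12 diet replicate 1. Group means were 211 ± 241 and 132 ± 80.7 normalized counts (SD, n = 3 libraries each), the log2 fold change was -0.24 (SE 0.95), and an exact permutation test gave p = 0.9. Without control replicate 2 the log2 fold change was 0.69 (SE 0.80), and without E3–E12 diet replicate 1 it was 0.33, so the direction rested on those libraries.

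Nr1h3 encodes LXRα, which is prominent in macrophages, liver and fat and is itself a known LXR target in human macrophages (chr2:91184061-91202834, minus strand, ENSMUSG00000002108). It was listed with 36.8, 0 and 51.0 normalized counts among the 3 controls and 163, 21.9 and 33.4 among the 3 E3–E12 diet litters. Only E3–E12 diet replicate 1 lay above every control, and the other diet libraries fell inside the control range. The lowest values of control replicate 2 come in steps of 2.001 normalized counts, and if 1 step is 1 read, a listing of 0 there allows up to 6.002 normalized counts (counting error only), which is still under the 21.9 of the next library. The log2 fold change of 2.01 had a standard error of 1.63 (exact permutation p = 0.6) and came down to 0.19 (SE 1.05) without control replicate 2. A stretch of 34 exon bases, 1.35% of its exon length, is shared with the annotated gene Gm13783 on the same strand.

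Rxra encodes RXRα, with which both liver X receptors pair (chr2:27676440-27762957, plus strand, ENSMUSG00000015846). Its normalized counts were 747, 3443 and 1171 among the 3 controls and 558, 1016 and 1497 among the 3 E3–E12 diet litters. As for Nr1h2, the highest value was in control replicate 2, the lowest in E3–E12 diet replicate 1, and the groups overlapped. The means were 1787 ± 1450 and 1024 ± 470 normalized counts (SD, n = 3 libraries each), and the log2 fold change was -0.61 (SE 0.64, exact permutation p = 0.5). Without control replicate 2 the groups were level, with a log2 fold change of 0.02 and a standard error of 0.52.

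The exporters differed from each other in how they varied across libraries. Abca1 encodes the transporter that moves cholesterol and phospholipid to lipid-poor apolipoproteins (chr4:53030787-53159895, minus strand, ENSMUSG00000015243). It had 3803, 9526 and 4839 normalized counts among the 3 controls and 3512, 4899 and 4810 among the 3 E3–E12 diet litters. Apart from control replicate 2, which was the highest, the other 5 libraries lay between 3512 and 4899. The means were 6056 ± 3050 and 4407 ± 777 normalized counts (SD, n = 3 libraries each), with a log2 fold change of -0.36, a standard error of 0.52 and a 95% interval from -1.50 to 0.77 from the limma fit (exact permutation p = 0.5). With control replicate 2 left out, the log2 fold change was 0.02 (SE 0.42).

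Abcg1 encodes the transporter that moves cholesterol to larger lipoprotein particles (chr17:31057675-31117988, plus strand, ENSMUSG00000024030). Its normalized counts were 476, 495 and 386 among the 3 controls and 383, 264 and 296 among the 3 E3–E12 diet litters. It was lower in every diet library than in every control, though the nearest libraries of the groups, control replicate 3 and E3–E12 diet replicate 1, were almost level. The means were 452 ± 58.2 and 314 ± 61.5 normalized counts (SD, n = 3 libraries each). The log2 fold change was -0.53, with an SE of 0.51 and a 95% interval from -1.66 to 0.59 (exact permutation p = 0.1, the smallest that 3 against 3 can give, and adjusted p = 0.999 from limma). Abcg1 was lower in E3–E12 diet mice under each of 13 other settings, with log2 fold changes from -0.68 to -0.32, and -0.46 without control replicate 2. Among these settings, the replicate number as a block, no filter and limma without a mean-variance trend could not change the fold change. The gap between the groups was not kept under every scaling, since the libraries overlapped when the values were rescaled to equal library totals and when they were divided by the microglial marker sum. In the latter case Abcg1 had 4.66, 0.95 and 1.55 counts per 1000 microglial marker counts among the 3 controls and 3.74, 1.11 and 0.93 among the 3 E3–E12 diet litters.

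The promoter of Abca1 is shown because the gene is among the best-known LXR targets. LXR and RXR bind a direct repeat, that is, a pair of copies of the half-site AGGTCA with 4 bases between them. Promoter windows from 250 bases before to 50 bases after the annotated start (RefSeq, GRCm38.p6) were at hand for 7 of the 9 genes, in 9 windows, and not for Abcg1 and Apoc1. The 250 bases before the start of Abca1 (chr4:53159896-53160145, given 5′ to 3′ along the minus strand) read as follows, with the 2 half-sites of the closest match to the repeat in capitals.
Abca1: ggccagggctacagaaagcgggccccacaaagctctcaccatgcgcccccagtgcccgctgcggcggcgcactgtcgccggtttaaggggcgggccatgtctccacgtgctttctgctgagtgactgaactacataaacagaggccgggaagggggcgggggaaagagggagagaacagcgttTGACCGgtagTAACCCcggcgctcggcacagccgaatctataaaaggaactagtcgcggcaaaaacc
The match lies on the opposite strand, 67 to 52 bases before the start, and carries 3 mismatches over the 12 half-site bases. Read in the direction of the repeat, it stands beside the closest matches in Srebf1, another known LXR target whose product drives fatty acid synthesis, and in a second annotated start of Rxra, each also with 3 mismatches. The Srebf1 match lies 182 to 167 bases before a start (window chr11:60210422-60210721, minus strand) and the Rxra match 58 to 43 bases before one (window chr2:27709042-27709341, plus strand).
Abca1: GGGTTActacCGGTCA
Srebf1: GGGTTActggCGGTCA
Rxra: GTGGCAggaaAGGTCA
The Abca1 and Srebf1 stretches share 14 of 16 bases, including all 12 half-site bases. On both strands, 0 of the 9 windows held the repeat with at most 2 mismatches, against 3.02% of 32851 windows in the table. With at most 3 mismatches, a limit set after the sequences were seen, 2 of the 9 windows (22.2%) held it, against 21.9% of all windows. A match of this kind describes letters and is not a measured binding site.

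Lrp1 encodes a very large endocytic receptor that takes up apolipoprotein E particles and many other ligands, and it was the most abundant of the 9 (chr10:127538161-127621148, minus strand, ENSMUSG00000040249). Its normalized counts were 12531, 46821 and 24086 among the 3 controls and 7516, 29807 and 23222 among the 3 E3–E12 diet litters. The groups overlapped, again with the highest value in control replicate 2 and the lowest in E3–E12 diet replicate 1. The means were 27813 ± 17446 and 20182 ± 11453 normalized counts (SD, n = 3 libraries each), with a log2 fold change of -0.48, a standard error of 0.74 and an exact permutation p of 0.6. Without control replicate 2 the log2 fold change was -0.0038 (SE 0.76), and without E3–E12 diet replicate 1 it was 0.12.

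Mylip encodes the E3 ubiquitin ligase that lowers certain lipoprotein receptors at the cell surface (chr13:45389742-45412022, plus strand, ENSMUSG00000038175). It had 1692, 1938 and 2418 normalized counts among the 3 controls and 884, 4227 and 2297 among the 3 E3–E12 diet litters. The controls were close together, and the diet libraries held both the highest and the lowest value. The means were 2016 ± 369 and 2469 ± 1678 normalized counts (SD, n = 3 libraries each), and the log2 fold change was 0.04 (SE 0.59, exact permutation p = 1.0). It lay below 0 when control replicate 1 (-0.08), E3–E12 diet replicate 2 (-0.48) or E3–E12 diet replicate 3 (-0.04) was left out.

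Soat1 encodes the enzyme that esterifies free cholesterol for storage in lipid droplets (chr1:156424525-156474331, minus strand, ENSMUSG00000026600). It was listed with 127, 0 and 231 normalized counts among the 3 controls and 83.8, 274 and 164 among the 3 E3–E12 diet litters. Outside control replicate 2, the control values lay within the range of the diet values. The log2 fold change of 2.34 (SE 1.72) was the largest of the 9 in size, yet without control replicate 2 it was -0.14 (SE 0.67, exact permutation p = 0.6 with all libraries). By its sequence, 0.719% of the 50-base windows of its transcripts also occur in other annotated genes, the highest share of the 9.

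Apoc1 encodes a small apolipoprotein that exchanges between lipoprotein particles and is made by macrophages (chr7:19689481-19692660, minus strand, ENSMUSG00000040564). It was listed with 42.0, 0 and 23.0 normalized counts among the 3 controls and 8.81, 2.23 and 3.72 among the 3 E3–E12 diet litters. Control replicates 1 and 3 lay above all diet libraries, while control replicate 2 was at 0. Counted in each library's smallest step, the values were about 54.4, 0 and 43.0 steps among controls and 7.76, 1.99 and 3.93 in E3–E12 diet mice, so, if 1 step is 1 read, fewer than 10 reads stood behind each diet value. The log2 fold change was -0.93 (SE 1.84, exact permutation p = 0.7), and it was 0.12 without control replicate 1. Without control replicate 2 it was -2.60 (SE 1.23) and the groups did not overlap, as was so for 14.4% of all genes tested in that comparison of 2 controls with 3 diet libraries. Apoc1 passed the filter only through the controls, whose mean was 21.7 normalized counts against 4.92 in E3–E12 diet mice, so a gene kept in this way had to be lower in E3–E12 diet mice in its mean count, and the values are a description only.

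**Figure D2:**
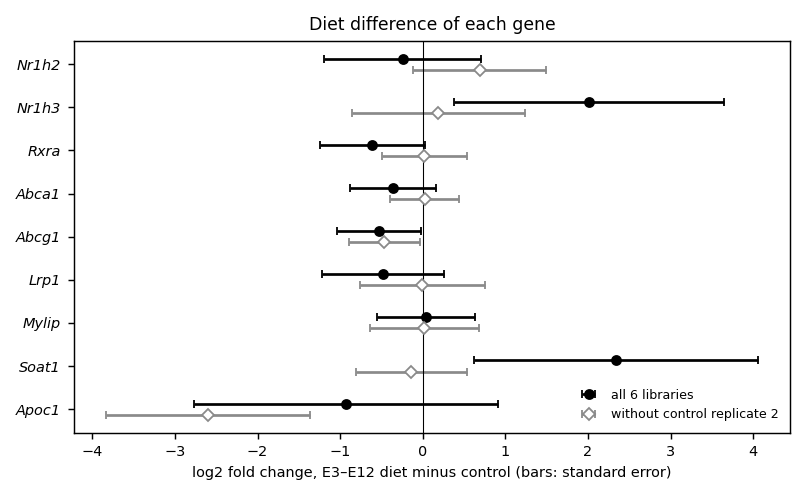
Log2 fold change of each gene, E3–E12 diet minus control on the log2(normalized count + 1) scale, with bars of 1 standard error from limma, for all 6 libraries (black) and without control replicate 2 (grey). Without that library the values of Abca1, Rxra, Lrp1 and Mylip lie at about 0.02 or closer to 0, Nr1h3 moves from 2.01 to 0.19 and Soat1 from 2.34 to -0.14, whereas Abcg1 stays near its value at -0.46.

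Across the 6 libraries, 2 libraries held most of the extreme values. Control replicate 2 held the highest value of 5 genes (Abca1, Abcg1, Nr1h2, Rxra and Lrp1) and the lowest of the other 3 that were at 0 there (Nr1h3, Soat1 and Apoc1). E3–E12 diet replicate 1 held the lowest value of 5 genes (Abca1, Nr1h2, Rxra, Lrp1 and Mylip) and the highest of Nr1h3. Abca1 and Lrp1 ranked the libraries in the same order, from control replicate 2 down through E3–E12 diet replicate 2, control replicate 3, E3–E12 diet replicate 3 and control replicate 1 to E3–E12 diet replicate 1. This likeness was noticed after the values were seen and is a description of 6 libraries, in which both genes were read from the same library and so share its total and its cell makeup.

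The sum of the microglial markers ran in a similar order, and it differed 5.08-fold between its highest and lowest library. Rxra differed 6.17-fold between its highest and lowest library in normalized counts but 1.71-fold per 1000 microglial marker counts. Lrp1 went from 6.23-fold to 1.71-fold in the same way, and Nr1h2 from 9.73-fold to 2.58-fold. Abca1 changed little on this scale, from 2.71-fold to 2.46-fold, and so did Mylip, from 4.78-fold to 4.76-fold. Abcg1 went the other way, from 1.87-fold in normalized counts to 5.01-fold per 1000 microglial marker counts. Per 1000 microglial marker counts, Lrp1 was at 103 ± 17.19 in controls and 90.6 ± 30.0 in E3–E12 diet mice (SD, n = 3 libraries each), and Abca1 at 25.0 ± 10.6 and 23.4 ± 9.89. The part of the microglial signal in the differences between diets was not tested.

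**Figure D3:**
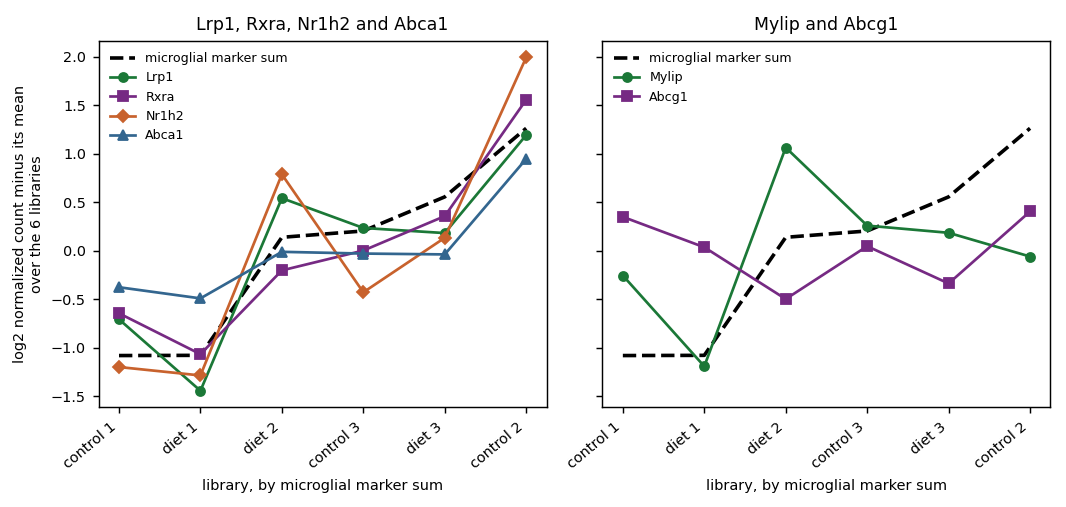
Log2 normalized count of each gene minus its mean over the 6 libraries (vertical axis), with the libraries ordered along the horizontal axis by their microglial marker sum (dashed line), for Lrp1, Rxra, Nr1h2 and Abca1 on the left and Mylip and Abcg1 on the right. The 4 genes on the left are lowest in E3–E12 diet replicate 1 and highest in control replicate 2, whereas Mylip peaks in E3–E12 diet replicate 2 and Abcg1 is lowest there.

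Set against other genes, Abcg1 and Abca1 were among the more even. Of 14432 genes tested with no library at 0, the median difference between the highest and the lowest library was 5.26-fold. A smaller difference than that of Abcg1 was found in 4.43% of these genes, and a smaller one than that of Abca1 in 18.4%. Mylip (46.1%), Rxra (56.4%) and Lrp1 (56.8%) were near the middle, and Nr1h2 (70.9%) was more uneven than most. Abca1 was followed most closely over the libraries by Prkaa1, Sp4 and Gm24106, whose centred log2 levels differed from its own by a mean of 0.069, 0.069 and 0.081. Lrp1 was followed most closely by Qpctl, Ccdc117 and Lst1, with mean differences of 0.088, 0.11 and 0.12.

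Per kilobase of exon, the 9 genes covered a wide range of levels. Lrp1 was highest, with a median over the 6 libraries of 1335 normalized counts per kilobase and a range from 424 to 2643. Mylip followed with a median of 655 (273 to 1307), then Abca1 with 466 (339 to 919) and Rxra with 200.1 (102 to 630). Lrp1 was above Mylip, Abca1 above Rxra, and Rxra above Abcg1 in 6 of 6 libraries, so these steps held in both diets. Mylip was above Abca1 in only 4 of 6 libraries, so their order was not the same in every library. Abcg1 had a median of 52.7 normalized counts per kilobase (36.2 to 67.8) and Nr1h2 one of 33.6 (14.96 to 146), and Abcg1 was the higher in 4 of 6 libraries. At the bottom, Soat1, Nr1h3 and Apoc1 had medians of 14.8, 14.0 and 8.42 normalized counts per kilobase, each with 0 in control replicate 2. Nr1h2 was above Nr1h3 in 5 of 6 libraries, while Nr1h3 and Apoc1, and likewise Apoc1 and Soat1, were each the higher in 3 of 6.

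Ratios within a library set aside any factor that scales all its genes alike, and they were taken here after adding 1 to each normalized count. The log2 ratio of Abca1 to Abcg1 was 2.996, 4.26 and 3.65 among the 3 controls and 3.19, 4.21 and 4.02 among the 3 E3–E12 diet litters. The diets overlapped, and the difference of 0.17 had an exact permutation p of 0.8 and changed sign without control replicate 1 (-0.15) or E3–E12 diet replicate 2 (-0.03). The log2 ratio of Nr1h3 to Nr1h2, the balance of the liver X receptors, was -0.52, -8.93 and -0.82 among controls and 1.68, -3.21 and -1.98 in E3–E12 diet mice. The difference of 2.26 (exact permutation p = 0.7) turned to -0.50 without control replicate 2. The log2 ratio of Abca1 to Soat1, of export to storage, differed by -2.70 (exact permutation p = 0.6) and by 0.16 without that library. Each of these ratios had a Benjamini-Hochberg adjusted p of 0.8 over the 4 ratios tested.

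The wider cholesterol-handling list held 87 other genes, of which 85 had a row of their own and 78 passed the filter; Rxrg, Ch25h, Sult2b1, Abcg5, Abcg8, Apoc2 and Apoa1 did not, and Apoc3 and Apoc4 had no single row. An unadjusted limma p under 0.05 was reached by 0 of the 78 (1.49% of all genes tested), in mean log2 level 40 lay above and 38 below the controls, and the median log2 fold change was 0.04. Without control replicate 2, 28 of the 78 were lower and their median was 0.17. Over all genes tested, 9059 of 18007 were then lower and the median was -0.004. With control replicate 1, 2 or 3 left out, 7, 2 and 5 of the 78 reached an unadjusted limma p under 0.05, against 878, 377 and 384 of all 18007 genes tested. Without E3–E12 diet replicate 1, 1 of the 78 did so, against 287 of all genes tested. The groups did not overlap for 3 of the 78 (5.9% of all genes tested). Med1, a Mediator subunit that binds nuclear receptors, had 2170, 3715 and 2060 normalized counts among controls and 1960, 1845 and 2020 in E3–E12 diet mice. It was lower in every diet library, though the nearest values were close, and its log2 fold change was -0.39 (SE 0.46), or -0.12 (SE 0.36) without control replicate 2. Gramd1a, which carries cholesterol from the plasma membrane to the endoplasmic reticulum, had 247.5, 0 and 220.2 normalized counts among controls and 339, 910 and 261 in E3–E12 diet mice. It was higher in every diet library, with a log2 fold change of 3.51 (SE 1.74) that came down to 0.89 (SE 0.61) without the 0 of control replicate 2. The study, with DESeq2, listed Gramd1a among the genes higher in E3–E12 diet mice.

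**Figure D4:**
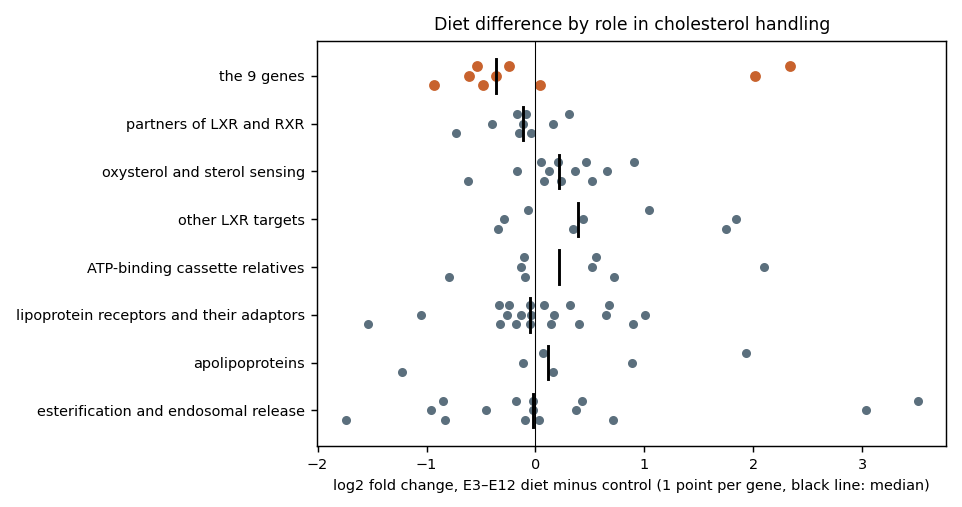
Log2 fold change (horizontal axis, E3–E12 diet minus control on the log2(normalized count + 1) scale) of the 9 genes and of the 78 tested genes of the wider list, grouped by role, with 1 point per gene and a black line at each group's median. The medians of the 7 roles lie between -0.12 and 0.39, and that of the 9 genes at -0.36. All 6 libraries are used here, and without control replicate 2 the median of the 9 genes was 0.02.

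Over all genes tested, 9797 of 18007 were higher in E3–E12 diet mice and the median log2 fold change was 0.09, and the counts by role stand beside these. By role, the partners of LXR and RXR had a median log2 fold change of -0.12, with 2 of 9 higher in E3–E12 diet mice. The coregulator Nrip1 had a log2 fold change of -0.73 (SE 0.59) and the coactivator Ep300 one of -0.15 (SE 0.60). These were, without control replicate 2, -0.28 (SE 0.54) and 0.27 (SE 0.55). Genes of oxysterol and sterol sensing were higher in 10 of 12 cases. Of these 10, 2 were listed at 0 in control replicate 2 and had standard errors of 1.86 and 2.01. The 12 genes had a median of 0.22, and all overlapped between diets. Among them, Cyp27a1, which makes an oxysterol ligand of LXR, had a log2 fold change of 0.36 (SE 0.66), Srebf2, the master regulator of cholesterol synthesis, one of 0.05 (SE 0.54), and Insig1, which holds that regulator back, one of 0.47 (SE 0.68). Without control replicate 2 they were 0.98 (SE 0.51), 0.41 (SE 0.46) and 1.21 (SE 0.52). Insig1 was then 1 of the 2 genes of the wider list with an unadjusted limma p under 0.05, against 377 of all genes tested.

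Among the other LXR targets, 5 of 8 were higher in E3–E12 diet mice and the median was 0.39. Pltp, the phospholipid transfer protein, had 4548, 140.3 and 2309 normalized counts among controls and 1741, 3084 and 2418 in E3–E12 diet mice, with the lowest value in control replicate 2. Its log2 fold change was 1.04 (SE 1.02) with all libraries and -0.46 (SE 0.48) without that one. Mertk, a receptor for engulfing dying cells, went the other way, with 4952, 10297 and 8039 normalized counts among controls and 3107, 8883 and 8112 in E3–E12 diet mice, and log2 fold changes of -0.29 (SE 0.58) with and -0.06 (SE 0.60) without control replicate 2. Known LXR targets did not share 1 order of libraries: control replicate 2 was the highest for Abca1, Mertk and the phospholipid-remodelling enzyme Lpcat3 (3293 normalized counts, against 711 to 1589 elsewhere) and the lowest for Pltp. The ATP-binding cassette relatives had a median of 0.21, with 4 of 8 higher. Abca9, named here for its level, had a log2 fold change of -0.80 (SE 0.72) and the lysosomal transporter Abca2 one of 0.56 (SE 0.79). With control replicate 2 left out these were -0.34 (SE 0.78) and -0.38 (SE 0.61).

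Lipoprotein receptors and their adaptors had a median of -0.05, with 9 of 20 higher. Trem2, a microglial receptor that binds lipids and lipoproteins and is also among the microglial markers summed above, had 908, 5186 and 4133 normalized counts among controls and 918, 2850 and 4467 in E3–E12 diet mice, a log2 fold change of -0.25 (SE 0.76), or 0.23 (SE 0.84) without control replicate 2. Scarb2, a lysosomal membrane protein, and Lrp10, a relative of Lrp1, had log2 fold changes of -0.18 and -0.05 with standard errors of 0.54 and 0.65, or 0.14 and 0.75 with standard errors of 0.51 and 0.38 without control replicate 2. The apolipoproteins had a median of 0.11, with 4 of 6 higher. These 4 include Apom, with a mean of 8.14 normalized counts in controls and 13.8 in E3–E12 diet mice. It passed the filter only through the diet litters, so its mean count had to be higher there. Its log2 fold change of 0.07 is also a middle value behind that median, and it counts as higher in the wider list. Apoe, the main acceptor of exported cholesterol in the brain, had 2827, 15671 and 4619 normalized counts among controls and 4049, 8820 and 7994 in E3–E12 diet mice. It was highest in control replicate 2, as Abca1 and Lrp1 were, and its log2 fold change was 0.16 (SE 0.67), or 0.87 (SE 0.52) without that library. Apod, made chiefly by glia other than microglia, had 562, 1384 and 844 normalized counts among controls and 722, 204 and 346 in E3–E12 diet mice, with a log2 fold change of -1.23 (SE 0.61), or -0.89 (SE 0.59) without control replicate 2. Clu, abundant in astrocytes and also made by choroid plexus, had 194, 9.87 and 527 normalized counts among controls and 1131, 154 and 354 in E3–E12 diet mice, lowest in control replicate 2 as the astrocyte markers were and highest in E3–E12 diet replicate 1. The 4 choroid plexus markers were also highest in E3–E12 diet replicate 1, with sums of 6860, 549 and 18597 normalized counts among controls and 39874, 52.4 and 503 in E3–E12 diet mice, and their part in the values of Clu was not tested. The log2 fold change of Clu was 1.93 (SE 1.26), or 0.30 (SE 0.86) without control replicate 2. Genes of esterification and endosomal release had a median of -0.02, with 6 of 15 higher. Npc1 and Npc2, which pass cholesterol out of the lysosome, had log2 fold changes of -0.02 and 0.37 with standard errors of 0.53 and 0.55, and Stard3, a sterol carrier of late endosomes, one of -0.17 (SE 0.64). Leaving out control replicate 2 gave 0.38 (SE 0.43), 0.69 (SE 0.53) and 0.43 (SE 0.52).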

How the data were processed

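RNA-seq of 6 microglial libraries (3 control, 3 E3–E12 diet) was used, grouped by the sample titles. The authors deposited 1 table of normalized counts, a signal on a scaled count scale and not raw reads; the submitters' processing notes name FastQC, STAR, featureCounts, DESeq2 and GRCm38, with no versions or roles. The table's name mentions surrogate variables, an adjustment not described in the sources used here. The lowest values of a library came in steps of 0.535 to 2.001 normalized counts, but of the low values of genes found in all 6 libraries only 5.16% to 48.7% were whole multiples within 0.02 of a step, so reads were not recovered and the depth behind a value is unknown.

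Symbols and positions came from the GENCODE annotation of GRCm38 (26507 of 26789 identifiers matched). The filter kept genes whose mean over the libraries was 10 normalized counts or more, and these were tested on log2(value + 1) with limma 3.58.1 in R 4.3.3 with a mean-variance trend, two-sided, with Benjamini-Hochberg adjustment at the study's threshold of 0.1. The code was tested on simulated data whose spread was set well below that of the real values. This checked the code and does not show what changes could be detected here. Single values were compared by exact permutation tests, two-sided. P-values set the difference between the diets against the spread between litters, with 3 per group. In limma the variance of a gene is also drawn towards a trend over all genes tested. The 95% intervals come from the limma fit.

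The 9 genes and all lists were chosen with earlier results of these data known. Of the wider list, genes were named that had an unadjusted p under 0.05, did not overlap between groups or were among the 3 highest per kilobase of their role; Srebf1 entered through its promoter. Some genes that the rule named are not reported here. The genes most like Abca1 and Lrp1 were those with the smallest mean absolute difference in centred log2 level. Alternatives were other scalings, a pseudocount of 10, no filter, the replicate number as a block and leaving out each library.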

Additional observations from a re-analysis of the deposited data

How the results depend on the processing

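Each member's log2 fold change kept its direction under all 7 settings that used all 6 libraries: rescaling to equal library totals, quantile normalization, a pseudocount of 10, no filter, the replicate block and, chosen after the data were seen, levels relative to the microglial markers and limma without a mean-variance trend. No filter, the replicate block and limma without a trend cannot change a fold change in this balanced design, so their direction was fixed in advance. For Abcg1 it was also fixed with a pseudocount of 10, since its groups did not overlap. In these settings 0 of the 9 genes reached an unadjusted p under 0.05 and 0 of all genes passed the adjusted threshold. The groups did not overlap for 0 of the 9 after rescaling to equal totals (5.83% of all genes tested). They did not overlap for 2 (Abca1 and Abcg1) after quantile normalization (6.85% of all) and for 0 relative to the microglial markers (1.72% of all). Over all genes, an unadjusted limma p under 0.05 was reached by 399 after quantile normalization, 292 with a pseudocount of 10 and 370 with no filter. It was reached by 478 with the replicate block and by 106 relative to the microglial markers. Of the wider list, 1 gene reached it after quantile normalization, 2 (Gramd1a among them) with a pseudocount of 10 and 2 (Gramd1a among them) with no filter, 2 (Smpdl3a and Lipa) with the replicate block and 1 (Gramd1a) relative to the microglial markers, where the list's median log2 fold change was 0.25. Relative to those markers the median of all genes was 0.29, after rescaling to equal totals 0.20, against 0.09 as deposited. The replicate numbers were not taken to pair the libraries, since not every same-numbered pair had deviations that correlated over 0.1. The correlations were 0.26, 0.03 and 0.14 for replicates 1, 2 and 3. Those of differently numbered libraries ran from -0.25 to 0.09, so whether the litters were paired remained uncertain.

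With each library left out in turn, the genes past the adjusted threshold ranged from 0 to 1, those with an unadjusted p under 0.05 from 188 to 878 and those of the wider list from 0 to 7. The 9 genes that were higher in E3–E12 diet mice ranged from 2 to 5, those not overlapping from 1 to 2, and their median log2 fold change from -0.49 to 0.12, while that of the wider list ranged from -0.091 to 0.17. The log2 fold change of Abca1 ranged from -0.64 to 0.023, of Nr1h2 from -0.90 to 0.69, of Rxra from -1.08 to 0.018, of Lrp1 from -0.95 to 0.12, of Mylip from -0.48 to 0.64, of Soat1 from -0.14 to 3.79 and of Apoc1 from -2.60 to 0.12. The difference in the log2 ratio of Nr1h3 to Nr1h2 ranged from -0.50 to 3.71, of Abca1 to Abcg1 from -0.15 to 0.49 and of Abca1 to Soat1 from -4.26 to 0.16. Abcg1 (-0.68 to -0.42) and Nr1h3 (0.19 to 3.04) kept their sign. For Abcg1 the sign and the lack of overlap were fixed in advance, since every diet library lay below every control. The causes of these shifts were not tested. With 3 litters per group and an unknown depth, the data limit what can be said of Nr1h3, Soat1 and Apoc1, each listed at 0 in 1 library.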
